A study of Mus musculus with 6 samples.

Results

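The genes of the respiratory chain and ATP synthase were measured in mouse embryonic stem cells of the CGR8 line after RNA interference against Rsl24d1, whose product takes part in building the large subunit of cytosolic ribosomes. Members were chosen by symbol (mt-Nd, mt-Co, mt-Cytb, mt-Atp, Nduf, Uqcr, Cox4 to Cox8, Atp5, Sdha to Sdhd and Cyc1), which gave 107 of 22332 listed symbols. They comprise 13 mitochondrially encoded subunits, 85 nuclear-encoded subunits, 8 Ndufaf assembly factors of complex I and Atp5s, a coupling factor counted apart. Cells transfected with an siRNA pool against Rsl24d1 (siRSL24D1, 3 libraries) were compared with cells given a non-targeting pool (siCtrl, 3 libraries). Both groups were the same line, grown on gelatin with LIF and 10% fetal bovine serum and collected 48 hours after transfection. Libraries were made from total RNA after removal of rRNA, and the study's text calls the libraries independent triplicates.

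Oxidative phosphorylation uses electrons from NADH and succinate to pump protons across the inner mitochondrial membrane through complexes I, III and IV, and complex V (ATP synthase) uses the returning protons to make ATP. Complex II is encoded wholly by nuclear genes. Each of the other complexes joins subunits of mitochondrial DNA to subunits imported from the cytosol, so its RNAs come from separate transcription, processing and translation systems. The mitochondrial strands are transcribed as long precursors that are cut mainly at tRNAs, which is why neighbouring mRNAs can share a precursor and still differ in level. Mouse embryonic stem cells in serum and LIF are known to rely on glycolysis as well as respiration.

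Rsl24d1 had 53.8, 55.6 and 52.1 CPM (estimated counts scaled to a common library size) in siRSL24D1 libraries, against 99.4, 103 and 97.9 in siCtrl libraries. The groups lay far apart, and the log2 fold change was -0.89 (SE 0.04, adjusted p = 2.02e-05, edgeR). All fold changes below are siRSL24D1 over siCtrl, CPM are TMM-scaled, and a gene was called at an adjusted p under 0.05 over the 15084 genes tested. Library totals ran from 30943635 to 35214000 estimated counts. The 8 stem cell markers summed to 2318 to 2430 CPM in siRSL24D1 libraries, against 2542 to 2811 in siCtrl libraries, with no marker at 0 throughout. Within that list Dppa5a, Nanog, Tfcp2l1 and Esrrb fell, Zfp42 rose (0.24), and Pou5f1 (0.00), Sox2 (0.08) and Klf4 (0.24) were not called. The 5 markers of 2-cell-like cells summed to 8.93 to 13.5 CPM in siRSL24D1 against 1.55 to 2.23 in siCtrl, and each of them rose. The 6 endoderm markers overlapped in sum at 36.9 to 41.4 CPM in siRSL24D1 and 39.7 to 43.5 in siCtrl. Gata6 (0.50) and Gata4 (0.54) rose, Pdgfra (-0.20) and Dab2 (-0.43) fell, and Sox17 and Foxa2 were not called. The 5 trophoblast markers overlapped in sum at 80.3 to 83.7 CPM in siRSL24D1 and 81.8 to 86.1 in siCtrl. Cdx2 (1.58) and Eomes (0.43) rose, Krt7 (-0.75) fell, Tfap2c was not called and Elf5 was not tested. The 4 neuroectoderm markers summed to 53.5 to 60.1 CPM in siRSL24D1 against 25.3 to 28.3 in siCtrl, where Tubb3 and Neurod1 rose and Sox1 (0.35) and Pax6 (-0.16) were not called. The 4 muscle or heart markers summed to 19.9 to 25.8 CPM in siRSL24D1 against 12.7 to 13.5 in siCtrl, where Actc1 rose (1.23), Myh6 (0.17) and Tnnt2 (0.03) were not called and Myl2 was not tested. The 8 fibroblast markers overlapped in sum at 122.8 to 149 CPM in siRSL24D1 and 125 to 159 in siCtrl. Of these Col1a2 (-0.46) and Pdgfrb (-0.52) fell and Col3a1 (0.61) rose. Col1a1, Thy1, Postn and Dcn were not called and Lum was not tested. The part of these shifts in the results below was not tested, and in bulk RNA fewer cells of a type cannot be told apart from less RNA per cell.

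The background of the comparison was broad. Of all genes tested 41.2% were called, 21.2% higher and 20.0% lower, with a median log2 fold change of 0.02. Of the 107 members 104 could be tested, and 9 rose and 24 fell, with a median of -0.04. The 3 that were not tested are muscle or testis forms of complex IV subunits: Cox6a2 and Cox8b had no count in any library, and Cox8c had 1 count in siRSL24D1 libraries and 2 in siCtrl libraries. The groups did not overlap for 37 of the 104, against 53.0% of all genes: 10 were higher (26.8% of all genes) and 27 lower (26.2% of all genes).

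The mitochondrial mRNAs are compact and abut or overlap, and 4 junctions are printed because values on either side of them were compared. Sequences are the plus strand of GRCm38 chromosome M, read from GENCODE M21 transcripts. Capitals mark the bases shared by both genes in the first 3 lines and the tRNA gene mt-Tg in the last.
mt-Atp8 and mt-Atp6: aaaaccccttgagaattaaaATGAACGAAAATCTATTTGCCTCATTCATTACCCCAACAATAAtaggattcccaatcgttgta
mt-Nd4l and mt-Nd4: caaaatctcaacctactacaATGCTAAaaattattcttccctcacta
mt-Nd5 and mt-Nd6: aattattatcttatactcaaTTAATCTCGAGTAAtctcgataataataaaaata
mt-Co3, mt-Tg and mt-Nd3: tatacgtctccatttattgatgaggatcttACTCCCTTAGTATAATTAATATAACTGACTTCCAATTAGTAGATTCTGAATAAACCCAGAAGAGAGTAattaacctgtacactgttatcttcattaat
The first stretch spans chrM:7907-7989 with 43 shared bases, the second chrM:10147-10193 with 7, and the third chrM:13532-13585 with 14. In the third, mt-Nd6 runs on the minus strand. The last spans chrM:9361-9488 and shows that a 68-base tRNA is all that separates mt-Co3 from mt-Nd3. Reads in a shared stretch can be assigned to either gene. The libraries were made with a stranded kit, and whether the counting used strand is not given in the sources used here.

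Of the 13 mitochondrially encoded mRNAs, counted by gene, 6 rose and none fell, against 21.2% higher and 20.0% lower over all genes. The median log2 fold change was 0.14, but 0.085 without siRSL24D1 1 and 0.053 with a GC correction. Of these, 4 of the 7 complex I mRNAs and the only complex III mRNA rose, mt-Co2 was the only riser of the 3 complex IV mRNAs, and neither complex V mRNA was called. The pairs mt-Nd4l with mt-Nd4 and mt-Atp8 with mt-Atp6 overlap on the same strand. Each pair may lie on a shared mRNA, which was not tested. Both mt-Nd4l and mt-Nd4 are among the 6 that rose. Together the 13 took 2.25%, 2.20% and 2.15% of counts in siRSL24D1 libraries, against 2.02%, 2.13% and 2.08% in siCtrl libraries. These shares of library totals did not overlap, but their ratio was only 1.06. In TMM-scaled CPM the 13 summed higher in siCtrl 2 than in siRSL24D1 3, so the groups overlapped on that scale. The change was unequal among complexes, as the following values show.

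The complex I mRNAs encode the membrane arm of the NADH dehydrogenase. mt-Nd3 had 361, 388 and 408 CPM in siRSL24D1 libraries, against 247, 245 and 244 in siCtrl libraries. The siCtrl libraries agreed closely and every siRSL24D1 library lay above them, with a log2 fold change of 0.65 (SE 0.05, adjusted p = 6.23e-05). mt-Nd1 had 921, 957 and 893 CPM in siRSL24D1, against 665, 698 and 688 in siCtrl, again without overlap (0.43, SE 0.04, adjusted p = 0.000197). mt-Nd4l, whose last bases are the first of mt-Nd4, had 45.9, 44.5 and 41.5 CPM in siRSL24D1 against 36.6, 33.9 and 37.7 in siCtrl (0.29, SE 0.06, adjusted p = 0.00587). These calls for mt-Nd1, mt-Nd3 and mt-Nd4l held whichever single library was left out.

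mt-Nd4 was less even, with 276, 218 and 279 CPM in siRSL24D1 libraries, against 172, 184 and 225 in siCtrl libraries. The groups overlapped, since the lowest siRSL24D1 library lay under the highest siCtrl library. Its log2 fold change was 0.41 (SE 0.12, adjusted p = 0.0246), and the adjusted p was 0.0737 without siCtrl 1, 0.0857 without siCtrl 2, 0.0904 without siRSL24D1 1 and 0.0870 without siRSL24D1 3. mt-Nd2 lay at 216, 209 and 201 CPM in siRSL24D1 against 194, 195 and 193 in siCtrl. It did not overlap either, but its log2 fold change of 0.10 was not called (SE 0.04, adjusted p = 0.0701), except when library totals (0.0314) or a length correction (0.0297) replaced the main scaling. mt-Nd5 had 209, 172 and 205 CPM in siRSL24D1 and 155, 175 and 204 in siCtrl, within the spread between libraries (0.14, adjusted p = 0.336).

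mt-Nd6 is the only one of the 13 transcribed from the other strand. It had 49.1, 66.8 and 48.8 CPM in siRSL24D1 libraries, against 68.7, 70.2 and 58.1 in siCtrl libraries. The groups overlapped, and the log2 fold change of -0.26 was not called (SE 0.13, adjusted p = 0.138). Without siRSL24D1 2 it was -0.43 (adjusted p = 0.00626) and without siCtrl 3 it was -0.35 (0.0446). The libraries in which mt-Nd6 stood lower in its group were those in which mt-Nd4 and mt-Nd5 stood higher: siRSL24D1 1, siRSL24D1 3 and siCtrl 3.

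mt-Cytb, the cytochrome b of complex III, had 986, 1072 and 1047 CPM in siRSL24D1 libraries, against 685, 682 and 686 in siCtrl libraries. The siCtrl values differed by only a few CPM, and the log2 fold change was 0.60 (SE 0.04, adjusted p = 5.36e-05). The complex IV mRNAs encode the catalytic core of cytochrome c oxidase and were the most abundant per length. mt-Co1 had 10119.6, 10017 and 9481 CPM in siRSL24D1 against 9746, 10488 and 9937 in siCtrl, and the groups overlapped, though siRSL24D1 3 was the lowest library and siCtrl 2 the highest (-0.03, SE 0.05, adjusted p = 0.710). mt-Co3 had 4217, 4101 and 4121 CPM in siRSL24D1 against 4081, 4444 and 4208 in siCtrl, likewise overlapping (-0.03, SE 0.05, adjusted p = 0.602). mt-Co2 had 2942, 2987 and 2812 CPM in siRSL24D1 against 2577, 2683 and 2571 in siCtrl. It did not overlap and was called (0.16, SE 0.04, adjusted p = 0.0217), but the adjusted p rose to 0.0636 with upper-quartile scaling, to 0.353 with a GC correction and to between 0.0571 and 0.0841 without siRSL24D1 1, siRSL24D1 2, siCtrl 1 or siCtrl 2.

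The complex V mRNAs encode membrane subunits of ATP synthase. mt-Atp6 had 1476, 1452 and 1369 CPM in siRSL24D1 and 1361, 1415 and 1401 in siCtrl (0.04, SE 0.04, adjusted p = 0.494). mt-Atp8, which shares its end with mt-Atp6, had 387, 397 and 358 CPM in siRSL24D1 and 361, 367 and 364 in siCtrl (0.06, SE 0.05, adjusted p = 0.299). Both pairs of groups overlapped. A length correction gave mt-Atp8 an adjusted p of 0.0478.

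**Figure D1:**
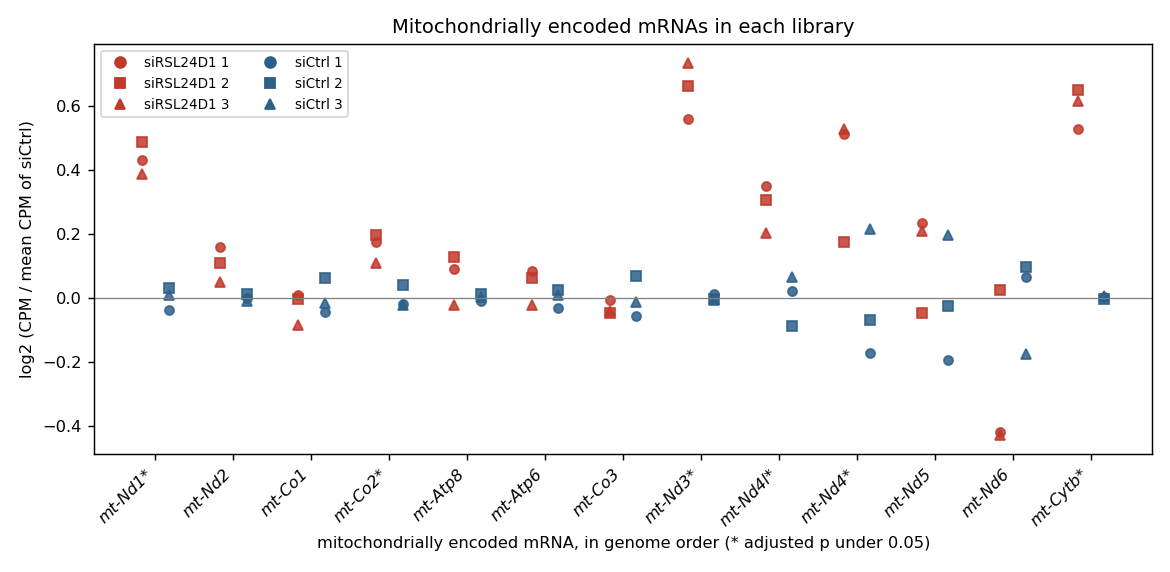
Each point is 1 library's TMM-scaled CPM relative to the mean of the 3 siCtrl libraries, on a log2 scale, for the 13 mitochondrially encoded mRNAs in genome order; red is siRSL24D1, blue is siCtrl, and marker shapes give the replicate number. The siRSL24D1 points of mt-Nd1, mt-Nd3, mt-Nd4l and mt-Cytb lie above all siCtrl points, those of mt-Co3 lie among them, and those of mt-Co1 and mt-Nd6 overlap them in part.

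Ratios within a library do not depend on scaling between libraries. mt-Nd3 stood at 8.56%, 9.46% and 9.90% of the mt-Co3 count in siRSL24D1 libraries, against 6.06%, 5.51% and 5.80% in siCtrl libraries, on the 2 sides of the tRNA shown above. mt-Cytb stood at 9.75%, 10.7% and 11.04% of mt-Co1 in siRSL24D1, against 7.02%, 6.504% and 6.91% in siCtrl. mt-Co2 stood at 29.1%, 29.8% and 29.7% of mt-Co1 in siRSL24D1, against 26.4%, 25.6% and 25.9% in siCtrl. None of these 3 ratios overlapped between the groups. Each sets an mRNA called higher over one that was not called, so the lack of overlap partly repeats those calls. In contrast the ratio of mt-Atp8 to mt-Atp6, at 26.2%, 27.4% and 26.1% in siRSL24D1 and 26.5%, 25.9% and 26.0% in siCtrl, overlapped, as did mt-Nd4 to mt-Nd4l and mt-Nd5 to mt-Nd6. Summed by complex, the mitochondrial mRNAs of complex I took 0.209% ± 0.0033 of counts in siRSL24D1 and 0.158% ± 0.0062 in siCtrl (SD, n = 3 each), a ratio of 1.32. For complex III the ratio was 1.54, for complex V 1.05 and for complex IV 1.02, and only the last 2 overlapped.

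Most nuclear-encoded subunits did not pass the test. Of 82 tested, 2 rose and 19 fell, against 21.2% higher and 20.0% lower over all genes: the share that fell, 23.2%, was near the background, and the share that rose, 2.44%, was below it. The median log2 fold change was -0.06, and 59 of the 82 had a negative value, against 7237 of all 15084 genes tested. That median was -0.12 without siCtrl 3, -0.10 without siRSL24D1 2, between -0.04 and -0.03 without siRSL24D1 3 or siCtrl 1, -0.04 with library totals and -0.02 with a length correction. The risers were Ndufb2 of complex I (0.18, adjusted p = 0.0478) and Atp5l of complex V (0.17, adjusted p = 0.0482). Atp5l lost its call without any 1 of the 6 libraries (adjusted p up to 0.130), and Ndufb2 without any but siRSL24D1 1 (up to 0.166). Both were also lost with DESeq2 size factors, upper-quartile scaling, no low-count filter, the DESeq2 Wald test and a GC correction, and Ndufb2 with limma-voom and a length correction. Ndufb2 also overlaps Gm42420 on its own strand and Braf on the other. Per kilobase of transcript the nuclear subunits had a median of 95.1 CPM in siRSL24D1 and 98.2 in siCtrl, against 965 and 705 for the mitochondrial ones. The mitochondrial medians fall on different genes, mt-Nd1 in siRSL24D1 and mt-Nd3 in siCtrl, so their gap is not a fold change. The median log2 fold change of the mitochondrial mRNAs was 0.14. Nuclear subunits took 1.10% ± 0.039 of counts in siRSL24D1 and 1.14% ± 0.053 in siCtrl (SD, n = 3 each), with overlapping groups.

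The split between rises and falls changed with the libraries used and with a correction for transcript length. siCtrl 3 was the lowest siCtrl library for 77 of the 82 nuclear subunits, a place it held for 40.5% of all genes, and siRSL24D1 2 was the highest siRSL24D1 library for 75 of them, against 40.8% of all genes. The median subunit stood 0.05 under its own mean over the 6 libraries in siCtrl 3 on the log2 scale, and 0.05 above it in siRSL24D1 2. Without siCtrl 3, 34 nuclear subunits fell and none rose, while over all 15250 genes tested 3285 fell and 3356 rose. Without siRSL24D1 1 there were 11 falls and 3 rises, against 2499 and 2713 over all genes. Without siRSL24D1 3, siCtrl 1 or siCtrl 2 there were 10 falls and no rise. Falls over all genes dropped there too, to 2193 without siRSL24D1 3, 2368 without siCtrl 1 and 2147 without siCtrl 2. The 19 falls included 9 that held whichever library was left out. The subunits' transcripts are short, with a median of 810 bases against 2914 for all genes, and with a correction for length the split was 8 rises and 17 falls. The same correction gave 2903 rises and 3559 falls over all genes, against 3191 and 3021 without it. With upper-quartile scaling the split of the nuclear subunits was 0 and 22, and that of all genes was 2773 and 3383.

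**Figure D2:**
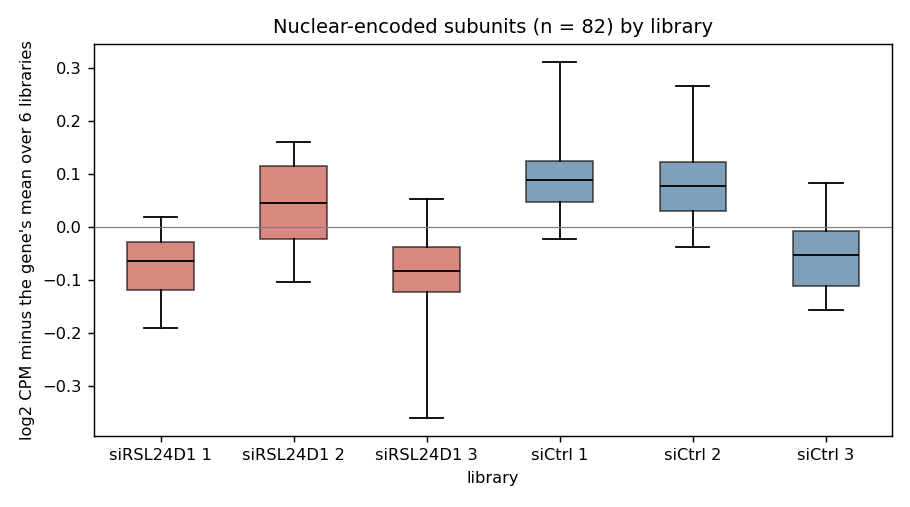
Boxes show, for the 82 nuclear-encoded subunits tested, each library's log2 CPM minus the gene's mean over the 6 libraries (line, median; box, quartiles; whiskers, 5th to 95th percentile). siRSL24D1 2 sits above siRSL24D1 1 and 3, and siCtrl 3 sits below siCtrl 1 and 2.

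In complex I, 1 of 36 nuclear subunits rose and 7 fell, with a median of -0.05. The share that fell, 19.4%, was near the 20.0% of all genes. The 7 core subunits carry the flavin and iron-sulphur clusters that pass electrons from NADH, and of these only Ndufv2 fell. It had 94.2, 91.2 and 91.1 CPM in siRSL24D1 libraries, against 109, 106 and 95.9 in siCtrl libraries (-0.17, SE 0.05, adjusted p = 0.0359), without overlap. That call was lost without siRSL24D1 1, 2 or 3 or siCtrl 1 or 2, where the adjusted p lay between 0.0643 and 0.141, and with library totals (0.0535). Ndufv1, Ndufs1, Ndufs3, Ndufs7 and Ndufs8 ran from -0.19 for Ndufs8 to -0.00 for Ndufs1 and overlapped between groups. Ndufs8 was called without siCtrl 3 (-0.28, adjusted p = 0.0292) and without siRSL24D1 2 (0.0407).

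Among the 29 accessory subunits, which surround the core and support its assembly and stability, 6 fell and 1, Ndufb2, rose. The share that fell, 20.7%, was near the 20.0% of all genes. Ndufa7 had 133, 141 and 116 CPM in siRSL24D1 libraries, against 191, 187 and 154 in siCtrl libraries. The highest siRSL24D1 library stayed under the lowest siCtrl library (-0.45, SE 0.10, adjusted p = 0.00649). Ndufv3, a subunit next to the NADH-binding module, had 56.4, 58.6 and 51.8 CPM in siRSL24D1 against 79.3, 77.0 and 65.0 in siCtrl (-0.41, SE 0.08, adjusted p = 0.00486). Ndufa6 had 58.4, 60.3 and 54.9 CPM in siRSL24D1 against 67.8, 69.9 and 65.3 in siCtrl (-0.23, SE 0.05, adjusted p = 0.00809). The falls of Ndufa6, Ndufa7 and Ndufv3 held whichever library was left out. Those of Ndufc1 (-0.24), Ndufb4 (-0.22) and Ndufb5 (-0.19) were lost without siRSL24D1 1, siRSL24D1 3, siCtrl 1 or siCtrl 2, with adjusted p up to 0.0756 for Ndufc1, 0.102 for Ndufb4 and 0.128 for Ndufb5. Ndufa6, Ndufb4 and Ndufb5 were picked out after their values were seen.

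Complex II, succinate dehydrogenase, also belongs to the citric acid cycle. All 4 of its subunits had negative fold changes, as did 59 of the 82 nuclear subunits tested. Of the 4, 2 fell and none rose, against 20.0% lower and 21.2% higher over all genes. Sdhc, a membrane anchor, had 68.9, 71.2 and 70.5 CPM in siRSL24D1 libraries, against 82.7, 80.8 and 77.1 in siCtrl libraries, and fell (-0.19, SE 0.04, adjusted p = 0.00823). Sdhd, the other anchor, had 112, 117 and 114 CPM in siRSL24D1 against 129, 129.8 and 121 in siCtrl (-0.14, SE 0.04, adjusted p = 0.0280). Neither anchor overlapped between groups, but the call for Sdhd was lost with a length correction (0.0573) and without siRSL24D1 1 (0.0855), siRSL24D1 3 (0.0839), siCtrl 1 (0.103) or siCtrl 2 (0.120). The catalytic flavoprotein Sdha, at 219, 223 and 218 CPM in siRSL24D1 against 237, 233 and 228 in siCtrl, did not overlap but was not called (-0.08, adjusted p = 0.0983). The iron-sulphur subunit Sdhb was at -0.15 (adjusted p = 0.0640) with overlapping groups. Without siCtrl 3 all 4 subunits were called lower, with adjusted p of 0.0417 for Sdha and 0.00699 for Sdhb. In that setting more of the nuclear subunits as a whole fell too, as given above. The 4 together took 0.0495% ± 0.00037 of counts in siRSL24D1 and 0.0531% ± 0.0014 in siCtrl (SD, n = 3 each), a ratio of 0.931 without overlap.

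In complex III, 2 of 9 nuclear subunits fell and none rose, against 20.0% lower and 21.2% higher over all genes. The share that fell, 22.2%, was near the background. Uqcrfs1, the Rieske iron-sulphur protein, had 89.0, 90.8 and 88.6 CPM in siRSL24D1 libraries, against 106, 101 and 102 in siCtrl libraries. The groups were well separated and the call held without any 1 library (-0.20, SE 0.04, adjusted p = 0.00432). Uqcrc2, a core protein of the matrix side, had 163, 167 and 163 CPM in siRSL24D1 against 188, 193 and 174 in siCtrl (-0.17, SE 0.05, adjusted p = 0.0198), lost without siRSL24D1 1, siRSL24D1 3, siCtrl 1 or siCtrl 2 with adjusted p up to 0.0988. Uqcrc1 (0.02, adjusted p = 0.862) and Cyc1, cytochrome c1 (-0.05, adjusted p = 0.416), overlapped between groups. The mitochondrial and nuclear subunits of the redox core thus gave 0.60 for mt-Cytb beside -0.20 for Uqcrfs1 and -0.05 for Cyc1.

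**Figure D3:**
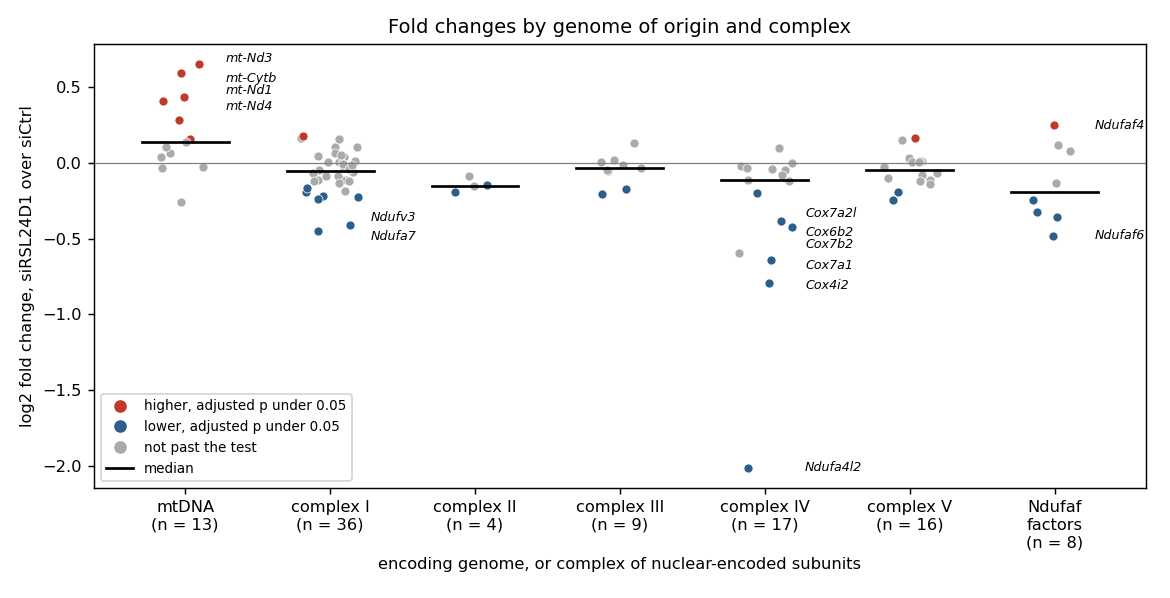
Each point is a member's log2 fold change, siRSL24D1 over siCtrl, for the mitochondrially encoded subunits, the nuclear-encoded subunits of each complex and the Ndufaf assembly factors; red and blue mark calls, grey marks genes not past the test, and black lines are medians. The mitochondrial median is at 0.14, the medians of the nuclear groups lie at or under -0.04, and the isoforms of complex IV reach -2.01.

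In complex IV, 6 of 17 tested nuclear subunits fell and none rose, against 20.0% lower and 21.2% higher over all genes. The share that fell was 35.3%. Of the 6 that fell, 5 are alternative forms of a subunit or related proteins rather than its standard parts. Of the 6 such forms tested (Ndufa4l2, Cox4i2, Cox7a1, Cox6b2, Cox7a2l and Cox7b2), 5 fell, with a median of -0.62. Of the 11 standard subunits 1 fell, with a median of -0.04. The difference between these groups was not tested. The standard subunit that fell was Cox7c, with 283, 299 and 294 CPM in siRSL24D1 against 353, 345 and 309 in siCtrl (-0.20, SE 0.06, adjusted p = 0.0210). Its call was lost without siRSL24D1 1, siRSL24D1 3, siCtrl 1 or siCtrl 2, with adjusted p up to 0.0930, and with a length correction (0.0515), and it was picked out after its values were seen.

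Ndufa4l2, a paralogue of the complex IV subunit Ndufa4 that is known to be induced by hypoxia, fell most of all members. It had 2.29, 2.45 and 1.77 CPM in siRSL24D1 libraries, against 10.6, 9.46 and 6.33 in siCtrl libraries. All siRSL24D1 values lay far under all siCtrl values, and the log2 fold change was -2.01 (SE 0.21, adjusted p = 0.000268). Ndufa4 itself had 166, 174 and 153 CPM in siRSL24D1 and 178, 173 and 153 in siCtrl (-0.03, SE 0.07, adjusted p = 0.753). Ndufa4l2 thus stood at 1.38%, 1.41% and 1.16% of the Ndufa4 count in siRSL24D1, against 5.94%, 5.48% and 4.15% in siCtrl. Its span overlaps Shmt2 on the other strand, which had a log2 fold change of -0.11 (adjusted p = 0.0539).

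Cox7a1, the form of the dimer-contact subunit typical of heart and muscle, had 7.87, 8.72 and 7.94 CPM in siRSL24D1 libraries, against 12.8, 13.03 and 12.4 in siCtrl libraries. The groups did not overlap (-0.64, SE 0.07, adjusted p = 0.000363). Its widely expressed counterpart Cox7a2 had 159.6, 172 and 162 CPM in siRSL24D1 and 169.7, 170.1 and 155 in siCtrl, a difference of -0.00 (SE 0.05, adjusted p = 0.976). Cox7a1 stood at 4.93%, 5.08% and 4.89% of Cox7a2 in siRSL24D1, against 7.54%, 7.66% and 8.01% in siCtrl. Cox7a2l, a related protein known for joining complexes III and IV into supercomplexes, had 181, 187 and 179.9 CPM in siRSL24D1 against 247, 246 and 223 in siCtrl. It fell without overlap (-0.38, SE 0.05, adjusted p = 0.000649) and was the most abundant of these forms per length, at 170 CPM per kilobase in siRSL24D1 and 222 in siCtrl.

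Cox4i2, a form of subunit 4 known from lung and from hypoxic cells, was near the detection limit, with 0.924, 0.798 and 0.812 CPM in siRSL24D1 libraries, against 1.85, 1.23 and 1.32 in siCtrl libraries. It fell without overlap (-0.79, SE 0.21, adjusted p = 0.0183), a call lost without siRSL24D1 2 (0.0537), siRSL24D1 3 (0.0600) or siCtrl 1 (0.0629). The common form Cox4i1 had 447, 489.9 and 469 CPM in siRSL24D1 and 445, 450.1 and 415 in siCtrl (0.10, SE 0.05, adjusted p = 0.139). With a length correction Cox4i1 was called higher (0.16, adjusted p = 0.0140). Cox6b2, known as a testis form, had 16.6, 16.8 and 13.5 CPM in siRSL24D1 against 22.7, 21.6 and 18.4 in siCtrl (-0.42, SE 0.11, adjusted p = 0.0143), and its adjusted p was 0.0544 without siCtrl 2. Its counterpart Cox6b1 was at -0.03 (adjusted p = 0.692). Cox7b2 had 0.319, 0.485 and 0.241 CPM in siRSL24D1 and 0.454, 0.584 and 0.557 in siCtrl, with overlapping groups (-0.60, SE 0.31, adjusted p = 0.156), beside -0.08 for Cox7b (0.175). Other standard subunits were not called either: Cox5a gave -0.12 (adjusted p = 0.0711), Cox5b -0.11 (0.322), Cox6a1 -0.04 (0.548) and Cox8a -0.02 (0.855). Cox5a and Cox7b were called lower without siCtrl 3 (0.0214 and 0.0290), and Cox5b without siRSL24D1 2 (-0.22, adjusted p = 0.0188).

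**Figure D4:**
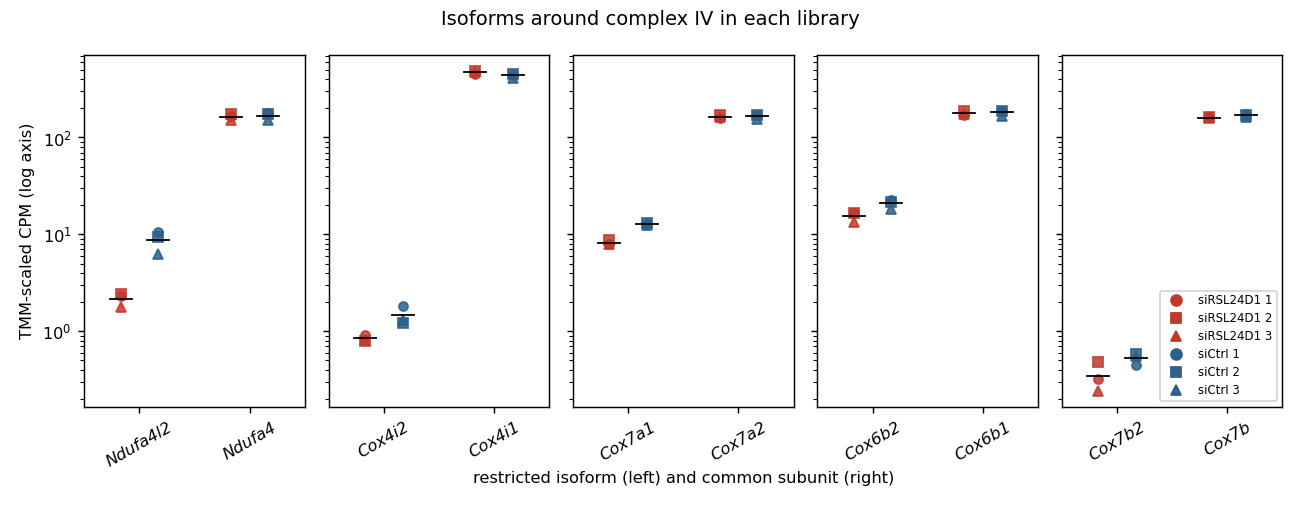
TMM-scaled CPM on a log axis for 5 pairs of a restricted form (left in each panel) and its common counterpart (right), with red siRSL24D1 and blue siCtrl points for single libraries and black bars for means. The groups separate for Ndufa4l2, Cox4i2, Cox7a1 and Cox6b2 and overlap for Cox7b2 and for each common counterpart.

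In complex V, 1 of 16 nuclear subunits rose and 2 fell. These shares, 6.25% and 12.5%, lay under the 21.2% and 20.0% of all genes. Atp5c1, the rotating gamma subunit of the catalytic head, had 203, 209 and 212 CPM in siRSL24D1 libraries, against 241, 240.1 and 233 in siCtrl libraries. The groups did not overlap and the call held without any 1 library (-0.19, SE 0.04, adjusted p = 0.00442). The alpha and beta subunits of the same head, Atp5a1 (-0.11, adjusted p = 0.0968) and Atp5b (-0.10, adjusted p = 0.152), overlapped between groups, and both were called lower without siCtrl 3 (0.0138 for Atp5a1 and 0.0393 for Atp5b). Ring subunit c is encoded by 3 genes with the same mature protein. Of these Atp5g2 fell, with 245, 260.0 and 244 CPM in siRSL24D1 against 315, 307 and 268 in siCtrl (-0.25, SE 0.06, adjusted p = 0.0155), whereas Atp5g1 (0.01, adjusted p = 0.906) and Atp5g3 (0.01, adjusted p = 0.943) overlapped. The call for Atp5g2 was lost without siRSL24D1 1, siRSL24D1 3, siCtrl 1 or siCtrl 2, with adjusted p up to 0.0719. None of the 4 peripheral stalk subunits was called.

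The 8 Ndufaf factors build complex I without staying in it. Of them 1 rose and 4 fell, against 21.2% higher and 20.0% lower over all genes. Ndufaf4 had 34.6, 36.7 and 35.3 CPM in siRSL24D1 against 30.2, 30.5 and 28.9 in siCtrl (0.25, SE 0.05, adjusted p = 0.00463), with an adjusted p of 0.0624 after GC correction. Ndufaf6 had 9.59, 10.2 and 9.38 CPM in siRSL24D1 against 13.1, 14.3 and 13.4 in siCtrl (-0.48, SE 0.07, adjusted p = 0.00121). Ndufaf7, a mitochondrial methyltransferase, was at -0.36 (adjusted p = 0.00148). Ndufaf3 (-0.32) and Ndufaf5 (-0.25) also fell, but each lost its call without siRSL24D1 3, siCtrl 1 or siCtrl 2, and Ndufaf5 also without siRSL24D1 1, with adjusted p up to 0.0858 for Ndufaf3 and 0.0849 for Ndufaf5. Ndufaf5 was also lost with the DESeq2 Wald test (0.0623). Atp5s fell, with 6.37, 5.79 and 5.02 CPM in siRSL24D1 against 7.71, 7.90 and 8.47 in siCtrl (-0.49, SE 0.10, adjusted p = 0.00670). Ndufaf3, Ndufaf5, Ndufaf7 and Atp5s were picked out after their values were seen.

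The RNAs for proteins that make and process mitochondrial transcripts were examined beside the members, since they act on the mitochondrially encoded mRNAs. Of 20 tested genes of mitochondrial RNA processing and stability, 9 rose and 2 fell, with a median of 0.11, against 21.2% higher and 20.0% lower over all genes. Rexo2, which degrades short RNAs in mitochondria, had 31.3, 39.7 and 34.4 CPM in siRSL24D1 libraries, against 23.0, 24.3 and 24.5 in siCtrl libraries (0.55, SE 0.09, adjusted p = 0.00149). Elac2, which cuts tRNAs at their 3′ ends, had 74.1, 79.5 and 74.7 CPM in siRSL24D1 against 56.6, 54.4 and 56.0 in siCtrl (0.45, SE 0.04, adjusted p = 0.000201). Neither overlapped between groups. Fastkd3 (0.41) and Tbrg4 (0.29), of the FASTK family of mitochondrial RNA-binding proteins, Grsf1 (0.18), of mitochondrial RNA granules, and Lrpprc (0.16, adjusted p = 0.00818), which stabilises mitochondrial mRNAs, also rose. Lrpprc was not called with a length (0.141) or GC correction (0.0556).

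The other 3 rises in that list were Trmt10c (0.18) and Ptcd3 and Angel2 (both 0.16). Each was lost without siRSL24D1 3 or siCtrl 2, Angel2 also without siRSL24D1 2 or siCtrl 1, and Trmt10c also without siRSL24D1 1, siRSL24D1 2 or siCtrl 3, with adjusted p up to 0.106 for Trmt10c, 0.0745 for Ptcd3 and 0.109 for Angel2. All 3 were also lost with a GC correction, and Trmt10c and Angel2 with upper-quartile scaling, the DESeq2 Wald test or a length correction. Trmt10c and Hsd17b10 are parts of the enzyme that cuts mitochondrial tRNAs at their 5′ ends, and Hsd17b10 was lower (-0.28, SE 0.08, adjusted p = 0.0277), a call lost without siRSL24D1 3, siCtrl 1 or siCtrl 2 (up to 0.0949). Ptcd2, known in mouse for its effect on Cytb RNA, also fell (-0.17, adjusted p = 0.0288) and was lost without siRSL24D1 1 or 2 or siCtrl 1 or 2 (up to 0.0974), with library totals (0.0556) and with the DESeq2 Wald test (0.0598).

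Of 20 genes of mitochondrial DNA maintenance and transcription, 4 rose and 4 fell, with a median of -0.06. Both shares were near those of all genes, 21.2% and 20.0%. Polrmt, the mitochondrial RNA polymerase, had 27.3, 27.0 and 25.1 CPM in siRSL24D1 against 21.02, 22.8 and 21.5 in siCtrl (0.28, SE 0.06, adjusted p = 0.00576), and its initiation factor Tfb2m rose as well (0.29, SE 0.07, adjusted p = 0.00883). Tfam, the packaging and initiation factor, was at -0.02 (SE 0.04, adjusted p = 0.679) with overlapping groups. Polg, the replicative DNA polymerase, had 166, 165 and 165 CPM in siRSL24D1 against 246, 255 and 249 in siCtrl (-0.60, SE 0.04, adjusted p = 2.95e-05), and Primpol, which primes and bypasses lesions, fell by 0.75 on the log2 scale (SE 0.07, adjusted p = 0.000137). The helicase Twnk rose (0.22) and the rRNA methyltransferase Tfb1m fell (-0.24), and both held without any 1 library. Twnk, Tfb1m, Mterf3 and Polg2 were picked out after their values were seen, as were Fastkd3, Tbrg4, Grsf1, Trmt10c, Ptcd3 and Angel2 above. The calls for Mterf3 (0.21) and Polg2 (-0.22) did not hold: the adjusted p reached 0.0977 for Mterf3 without siRSL24D1 2, siCtrl 2 or siCtrl 3, and 0.0963 for Polg2 without siRSL24D1 1, siRSL24D1 3 or siCtrl 1. Both were also lost with the DESeq2 Wald test, and Mterf3 with upper-quartile scaling or a GC correction.

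**Figure D5:**
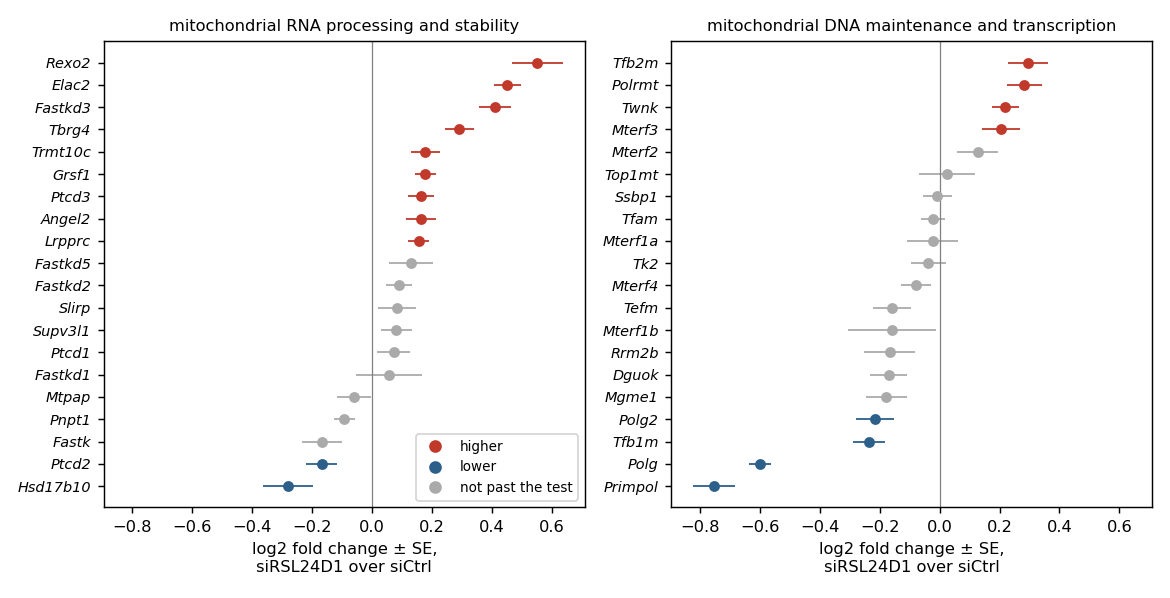
Log2 fold change, siRSL24D1 over siCtrl, with its SE for the 20 tested genes of mitochondrial RNA processing and stability (left) and the 20 of mitochondrial DNA maintenance and transcription (right); red and blue mark calls and grey marks genes not past the test. The left panel has 9 red and 2 blue points, with Rexo2 at 0.55 on top, and the right panel has 4 of each, with Primpol at -0.75 at the bottom.

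The other lists moved in both directions, as did all genes, with 21.2% higher and 20.0% lower. For the assembly factors of complexes II to V the shares were 17.1% higher and 5.71% lower, so the share that fell was below the background. Both shares in the ubiquinone and cytochrome c list were near it. Of 35 assembly factors of complexes II to V, 6 rose, led by Coa7 (0.30, adjusted p = 0.00446) and Cox19 (0.30, adjusted p = 0.00713), and 2 fell: Cox18 (-0.50, adjusted p = 0.00162), which inserts Cox2 into the membrane, and Uqcc2 (-0.36, adjusted p = 0.0148), which was lost without siRSL24D1 3 (0.0591) or siCtrl 2 (0.0603). Of 7 other complex I assembly factors Nubpl, which delivers iron-sulphur clusters, fell (-0.67, adjusted p = 0.000212). Ecsit (0.23) and Acad9 (0.14) rose. Both were lost without siRSL24D1 1, siRSL24D1 2 or siCtrl 2, Ecsit also without siCtrl 3, and Acad9 also without siRSL24D1 3 or siCtrl 1, with adjusted p up to 0.0956 for Ecsit and 0.141 for Acad9. Acad9 was also lost with DESeq2 size factors, upper-quartile scaling, no low-count filter, the DESeq2 Wald test and a length or GC correction (up to 0.188). In the ubiquinone and cytochrome c list 4 of 20 rose and 5 fell, with Coq10b (0.47, adjusted p = 0.000729) and Coq4 (0.35, adjusted p = 0.00535) above and Coq8a (-0.55, adjusted p = 0.00244) and Coq10a (-0.40, adjusted p = 0.0106) below. Cycs, cytochrome c, was at 0.11 (adjusted p = 0.125), and 0.0493 with library totals. Of 14 carriers and inhibitors Immt rose (0.14, adjusted p = 0.0158), a call lost without siCtrl 2 (0.0880) and with upper-quartile scaling, a length correction or a GC correction (up to 0.122), and Higd1a, known as a hypoxia-induced factor, fell (-0.29, adjusted p = 0.00154), as did Atpif1, the inhibitor of ATP synthase (-0.17, adjusted p = 0.0288; up to 0.109 without siRSL24D1 1, siRSL24D1 3, siCtrl 1 or siCtrl 2, and 0.0966 with a length correction).

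Nuclear respiratory genes are known targets of NRF1, GABP (an ETS factor) and, in many cells, MYC. Of 9 tested regulators Myc rose, with 22.6, 24.7 and 25.9 CPM in siRSL24D1 against 16.6, 16.0 and 18.1 in siCtrl (0.53, SE 0.07, adjusted p = 0.000825). Gabpa, the DNA-binding part of GABP, fell slightly (-0.12, SE 0.04, adjusted p = 0.0255), and the call was lost without siRSL24D1 2, siRSL24D1 3, siCtrl 1 or siCtrl 2 (up to 0.0935) and with library totals (0.0557). Nrf1 had 73.6, 71.4 and 70.3 CPM in siRSL24D1 against 69.9, 66.7 and 66.1 in siCtrl, which did not overlap but was not called (0.09, adjusted p = 0.143). Ppargc1a did not pass the low-count filter.

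The stretches of 250 bases before the start of 3 members are printed because they show the letters typical of these factors beside members that did and did not fall. They are from RefSeq on GRCm38.p6, and 74 of the 107 members had such an entry. Capitals mark CCGGAAG (GABP or ETS) and the NRF1 motif (GCGC, any base, TGCGC) on either strand. The motifs do not overlap in the 3 stretches.
Sdhd: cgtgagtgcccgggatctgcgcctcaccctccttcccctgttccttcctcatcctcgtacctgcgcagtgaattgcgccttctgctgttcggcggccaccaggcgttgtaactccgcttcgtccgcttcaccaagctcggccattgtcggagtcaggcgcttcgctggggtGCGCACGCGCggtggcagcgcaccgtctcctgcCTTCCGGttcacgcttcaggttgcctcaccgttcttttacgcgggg
Cox6a1: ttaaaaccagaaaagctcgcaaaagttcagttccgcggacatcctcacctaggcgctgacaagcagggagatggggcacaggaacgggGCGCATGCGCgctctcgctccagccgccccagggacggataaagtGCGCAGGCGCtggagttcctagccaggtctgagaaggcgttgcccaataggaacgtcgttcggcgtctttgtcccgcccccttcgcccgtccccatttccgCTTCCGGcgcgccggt
Cox7a1: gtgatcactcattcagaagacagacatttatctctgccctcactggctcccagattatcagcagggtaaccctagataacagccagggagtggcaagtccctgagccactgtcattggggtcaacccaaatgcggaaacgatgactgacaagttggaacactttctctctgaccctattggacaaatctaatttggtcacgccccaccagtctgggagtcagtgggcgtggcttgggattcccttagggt
The first lies at chr9:50603850-50604099 on the minus strand, the second at chr5:115348959-115349208 on the minus strand and the third at chr7:30183921-30184170 on the plus strand. Sdhd, which fell slightly, and Cox6a1, which was not called, hold both motifs, and Cox7a1, which fell, holds neither in this window. CCGGAAG was found in 17.7% of 79 member promoters, against 6.91% of all 32851 promoters in the table, and the NRF1 motif in 19.0% against 3.74%. Of the 14 members with the NRF1 letters 1 rose and 4 fell, and of the 14 with the GABP letters 1 rose and 1 fell. Among all 74 members with a promoter 3 rose, 18 fell and 1 was not tested. Over all genes tested 21.2% were higher and 20.0% lower. AAGATGGCG (YY1) was found in 1.27% of member promoters against 0.606% of all, and ACGTG, the core of hypoxia response elements, in 19.0% against 16.6%. Of the 14 members with ACGTG 1 rose, 3 fell and 1 was not tested. Ndufa4l2 and Cox4i2 had no promoter entry, so ACGTG was not looked for in them.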

How the data were processed

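Per the submitters' processing notes, STAR 2.7.0f, Salmon 0.14.1 and the GRCm38 build were used. The tools' roles, the strand setting and the annotation release were not given in the sources used here. The deposited values are estimated counts per gene symbol, made by the authors, and 21.59% to 22.65% of the values in a library are not whole (tolerance 1e-09). They were rounded to whole numbers and tested with edgeR 4.0.16 (TMM scaling, filterByExpr with a minimum count of 10 and total of 15, quasi-likelihood F test, two-sided, Benjamini-Hochberg over all 15084 genes tested) in R 4.3.3. The tests had been planned for raw counts. The biological coefficient of variation was 7.48%. Simulated data with known changes were used to test the edgeR fit. With 3 libraries a group, p-values measure the spread between these libraries.

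Transcript lengths, GC content and positions came from GENCODE M21, in which 22304 of the 22332 symbols were matched. Length and GC corrections were lowess offsets (span 0.3). Shares are percent of a library's summed counts. Members, gene lists and tests were chosen with earlier results of these data known. The text names Rsl24d1, all mitochondrially encoded subunits, core catalytic subunits, isoform pairs, up to 3 called subunits per complex and direction without overlap between groups and averaging 3 or more log2 CPM, the largest called rise and fall among Ndufaf factors, up to 2 called genes per pathway list and direction, and Tfam, Polrmt, Lrpprc, Nrf1, Ppargc1a and Cycs. Other genes are said to have been picked out later. Of the genes this rule picks, 1 is not reported here. Alternatives were other scalings, filters, tests (DESeq2 1.42.0, limma-voom 3.58.1) and thresholds, length and GC corrections, a replicate block, unrounded values (chosen after seeing the data) and leaving out each library.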

Additional observations from a re-analysis of the deposited data

How the results depend on the processing

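Over 2162 combinations of a named gene and an alternative, 1927 kept direction and side of the threshold, 201 lost the call, 34 gained one and 0 reversed a called direction. Of 69 named genes called, 38 kept the call under every alternative at the 0.05 threshold. Counts are given as nuclear-encoded subunits unless another group is named. At an adjusted p under 0.01, 1886 genes of all rose and 1867 fell, 0 subunits rose and 9 fell, with 0 rising and 3 falling in complex I, 1 falling in complex II, 1 in complex III and 3 in complex IV, and 0 rising and 1 falling in complex V. At that threshold 2 Ndufaf factors fell, and of the pathway genes 15 rose and 9 fell. No subunit rose (0 in all, 0 in complex I, 0 in complex V) with DESeq2 size factors, upper-quartile scaling, no low-count filter, the DESeq2 Wald test or the GC correction with or without the block. Limma-voom gave 1 rise, 0 of them in complex I, and library totals gave 2 rises in complex I. With the length correction 8 rose (4 in complex I, 1 in complex III, 1 in complex IV, 2 in complex V) and 1 fell in complex II. The length correction with the block gave 9 rises (5 in complex I, 1 in complex III, 1 in complex IV, 2 in complex V) and 1 fall in complex II. With the GC correction 0 Ndufaf factors and 17 pathway genes rose. The causes were not tested.

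With the replicate number as a block, 2 subunits rose and 22 fell, and 6 mitochondrially encoded mRNAs rose and 1 fell (mt-Nd6, adjusted p = 0.0250). The count of 1 fall was the same with the length or GC correction and the block, and with the GC correction and the block 12 complex I subunits fell. Same-numbered libraries correlated at -0.38, 0.32 and 0.35 in their deviations from the group means, so the numbers were not taken to pair them, and 2 of 6 libraries were most like their own number.

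Leaving out 1 library at a time gave 0 to 1 falls of mitochondrially encoded mRNAs and 4 to 6 rises. Subunits rose in 0 to 3 cases and fell in 10 to 34. Over all genes tested, 2210 to 3356 rose and 2147 to 3285 fell. By complex there were 0 to 2 rises and 3 to 13 falls in I, 1 to 4 falls in II, 1 to 2 in III, and 0 to 1 rises and 1 to 7 falls in V. Ndufaf factors fell in 2 to 4 cases, and pathway genes rose in 17 to 28 and fell in 11 to 21. Depth limits the forms near 1 CPM, Cox4i2 and Cox7b2.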

Other observations

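Members were looked at by chromosome after their values were seen. Of 7 tested members on chromosome 17, 5 fell (Ndufa7, Ndufv3, Ndufv2, Cox7a2l and Ndufaf7), against 191 of 748 tested genes on that chromosome (25.5%). All nuclear chromosomes with a tested member were looked at, and this one is given because it had the most falls. Its share of all genes lower was also the largest among them. The call for Ndufv2 was lost without any of several libraries, as given above. No test was made of this count of falls.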
